A study of Micropterus salmoides with 18 samples.

Results

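The genes described here are 7 transcription factor genes with known parts in ovary fate: foxl2a, foxl2l, foxl3, runx1, gata6, foxo3a and foxo3b. They were picked by name out of the 43106 entries of an expression table of gonads from the largemouth bass, Micropterus salmoides, a farmed freshwater fish, and each matched a RefSeq symbol of the species. Per the labels, 216 fish were kept in 12 tanks of 18, with the sexes in separate tanks. Groups with the prefix IC were sampled at day 0, NC after 28 days at 20 °C, and HT after 28 days at 28 °C, a temperature reached within 2 h. The letters F and M give the labelled sex, and each of the 6 groups holds 3 libraries. No strain, age, genotype or reproductive stage is named, and no temperature is listed for the IC groups. The labels do not tie a library to its own fish or tank. The p-values therefore cover library-to-library spread alone, and that spread may be technical.

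The gonad genes went against the letters of the IC and HT groups. The median of 7 oocyte markers stood at 205 to 403 FPKM (a level per length of gene and per mapped fragment) in the 9 libraries with the labels NC-F, IC-M and HT-M, against 0.31 to 2.89 FPKM in the 9 with the labels NC-M, IC-F and HT-F. The median of 5 sperm markers stood at 0.11 to 1.17 FPKM in the former and at 44.4 to 631 FPKM in the latter. The former are called ovary-type and the latter testis-type here, and like is compared with like. These markers bear on the letter alone. The time and temperature prefixes are taken as labelled and were not tested. Libraries held 15152 to 21638 genes at 1 FPKM or more, and depth is unknown because the values are not counts. Within-group correlations across genes of log2 values were 0.958 to 0.990 in 5 groups and 0.903 to 0.945 in NC-M. There, libraries 1 and 2 stood apart from library 3 (the flagellar gene cfap73 stood at 56.7, 35.1 and 395 FPKM). NC-M library 3 correlated by 0.949 to 0.957 with the HT-F libraries, above the range within NC-M. NC-M libraries 1 and 2 correlated by 0.889 to 0.902 with HT-F. The reason was not tested.

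In the vertebrate ovary, Foxl2 is a forkhead factor of the granulosa cells that surround the oocyte. It switches on oestrogen synthesis and holds down testis genes. In mice, Runx1 works beside Foxl2 in fetal granulosa cells, and Gata6 acts with Gata4 in granulosa cell growth. Foxo3 keeps mouse primordial follicles at rest until insulin and PI3K signalling moves it out of the oocyte nucleus. In medaka a gene named foxl3 sets germ cells toward egg or sperm, and in zebrafish foxl2l marks germ cells that enter oogenesis. Fish genomes often carry 2 copies of a mammalian gene, as with foxo3a and foxo3b.

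The question was whether 28 °C lowered these genes in ovary-type gonads or raised them in testis-type gonads. No fall in ovary-type and no rise in testis-type libraries passed the test. In ovary-type libraries, all 5 of the 7 genes that had enough signal to be tested were higher in HT-M than in NC-F, and in testis-type libraries none of the 3 tested genes was called, although foxo3b was high in 2 of the 3 HT-F libraries. Tests were run with limma on log2(FPKM + 1), on genes with at least 1 FPKM in at least 3 fitted libraries, with Benjamini-Hochberg adjustment over all genes and a threshold of 0.05. In HT-M against NC-F, 28.7% of the 17026 genes tested were called higher and 20.0% lower. A rise was thus a common result among all genes in this comparison.

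**Figure D1:**
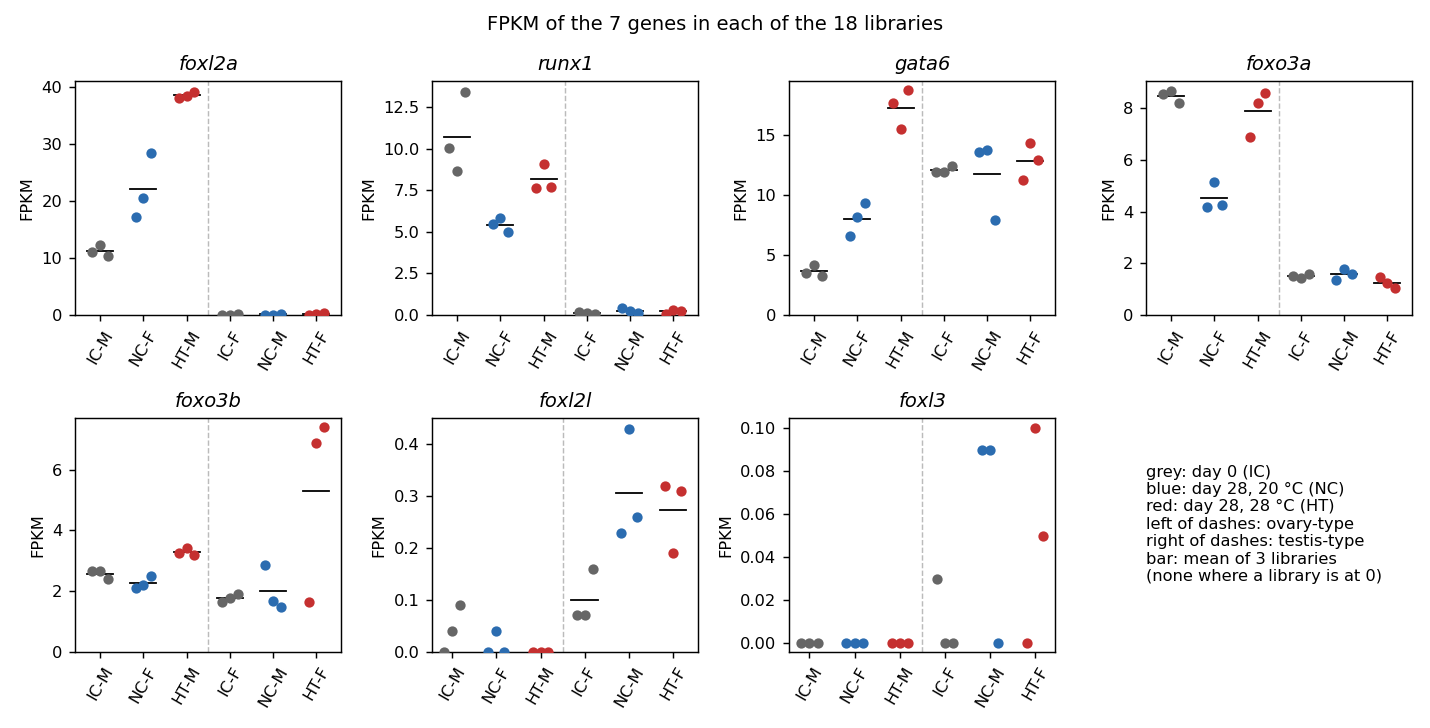
FPKM of each of the 7 genes (vertical axes, each with its own scale) in the 3 libraries of each group (points), with the group mean as a bar where no library is at 0. foxl2a and gata6 rose from IC-M through NC-F to HT-M, runx1 and foxo3a were lowest in NC-F among ovary-type libraries, and foxl2l and foxl3 stayed at or under 0.43 FPKM throughout.

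foxl2a, the granulosa regulator, was at high levels in ovary-type libraries only. It stood at 11.08, 12.28 and 10.40 FPKM in IC-M, at 17.20, 20.61 and 28.52 FPKM in NC-F, and at 38.16, 38.43 and 39.17 FPKM in HT-M. The 3 groups did not overlap, and the HT-M libraries lay close together while those of NC-F were spread. In testis-type libraries the highest value was 0.37 FPKM, in HT-F, and 1 library of IC-F was at 0. The rise from NC-F to HT-M was 0.81 ± 0.162 (SE) on the log2(FPKM + 1) scale (limma adjusted p = 0.00438), a scale that understates the change of low genes.

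gata6, the zinc finger factor that pairs with Gata4 in mouse granulosa cells, moved in the same order. Its FPKM in the 3 libraries were 3.51, 4.21 and 3.29 in IC-M, 6.63, 8.18 and 9.35 in NC-F, and 17.67, 15.52 and 18.75 in HT-M. Again the groups did not overlap. The log2 difference between HT-M and NC-F was 1.02 ± 0.141 (limma adjusted p = 8.46e-04), the largest of the 5 differences. Unlike foxl2a, gata6 was also present in testis-type libraries, at 11.92 to 12.42 FPKM in IC-F, 11.30 to 14.35 FPKM in HT-F and 13.58, 13.76 and 7.95 FPKM in NC-M.

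runx1, the partner of Foxl2 in the mouse fetal ovary, followed another course. It stood at 10.03, 8.67 and 13.39 FPKM in IC-M, at 5.45, 5.82 and 4.97 FPKM in NC-F, and at 7.65, 9.08 and 7.70 FPKM in HT-M. NC-F was the lowest ovary-type group, HT-M lay wholly above it, and HT-M overlapped IC-M. Testis-type libraries held 0.05 to 0.40 FPKM. The difference between HT-M and NC-F was 0.51 ± 0.154 (limma adjusted p = 0.0238). This call was the least secure: it ended when libraries were rescaled by their median of ratios (0.43, adjusted p = 0.0726), and without NC-F library 1 (0.52, adjusted p = 0.0592), NC-F library 3 (0.46, adjusted p = 0.0777) or HT-M library 2 (0.44, adjusted p = 0.074).

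foxo3a, a forkhead factor that restrains follicle activation in mice, shared the course of runx1. Its values were 8.57, 8.68 and 8.20 FPKM in IC-M, 4.20, 5.16 and 4.27 FPKM in NC-F, and 6.89, 8.20 and 8.61 FPKM in HT-M. NC-F again lay below both other ovary-type groups, which overlapped each other. In testis-type libraries foxo3a was low and even, between 1.03 and 1.79 FPKM. The difference between HT-M and NC-F was 0.68 ± 0.116 (limma adjusted p = 0.00211).

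foxo3b, the other copy, was the lower of the pair in every ovary-type library and moved least there. It stood at 2.66, 2.66 and 2.41 FPKM in IC-M, at 2.10, 2.21 and 2.50 FPKM in NC-F, and at 3.27, 3.42 and 3.19 FPKM in HT-M. HT-M was above both other groups, which overlapped. The difference between HT-M and NC-F was 0.39 ± 0.106 (limma adjusted p = 0.015), and it was not called without NC-F library 1 (0.36, adjusted p = 0.0539) or when all 18 libraries set the spread (adjusted p = 0.457).

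foxl2l and foxl3, which are germ cell genes in other fish, passed the filter in no fit. Both symbols are in the table, but in other fish the 2 names have been used for the same gene, so which gene each one is in the bass rests on the annotation alone. foxl2l was listed at 0 in all 3 HT-M libraries and 2 of NC-F, and reached 0.09 FPKM in IC-M. It was above 0 in all 9 testis-type libraries, at 0.07, 0.07 and 0.16 FPKM in IC-F, 0.23, 0.43 and 0.26 FPKM in NC-M, and 0.32, 0.19 and 0.31 FPKM in HT-F, so the testis-type groups at day 28 lay above every ovary-type library. foxl3 was listed at 0 in all 9 ovary-type libraries and above 0 in 5 of the 9 testis-type libraries, at no more than 0.10 FPKM. An exact 0 here is a listed value, since the number of reads behind it is not known. With no filter on low values, the log2 difference of foxl2l between ovary-type and testis-type libraries was -0.08 at day 0. After 28 days it was -0.36 at 20 °C and -0.35 at 28 °C. These differences rest on values at or under 0.43 FPKM and are given with no test. foxl2l was called in neither heat comparison without the filter (limma adjusted p = 0.728 in ovary-type and 0.808 in testis-type libraries).

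Between day 0 and day 28 at 20 °C, a pair of the tested genes rose and a pair fell. No day 0 temperature is listed, so time and a change of temperature cannot be told apart here. In NC-F against IC-M, where 11.9% of all genes were higher and 13.6% lower, foxl2a rose by 0.89 ± 0.162 (limma adjusted p = 0.00577) and gata6 by 0.95 ± 0.141 (adjusted p = 0.00219). runx1 changed by -0.85 ± 0.154 (adjusted p = 0.00562) and foxo3a by -0.78 ± 0.116 (adjusted p = 0.00215). foxo3b was not called (-0.13, 95% interval -0.37 to 0.11, adjusted p = 0.38). This comparison and that of HT-M with NC-F share the NC-F libraries, so a low or high NC-F value enters both with opposite sign.

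The difference of HT-M from IC-M takes no value from NC-F, although the NC-F libraries help set the spread, and there the pairs parted. Among all genes, 16.1% were higher and 8.44% lower. foxl2a was higher by 1.69 ± 0.162 (limma adjusted p = 1.31e-04) and gata6 by 1.97 ± 0.141 (adjusted p = 2.46e-05). runx1 was not called, with a difference of -0.34 and a 95% interval of -0.69 to 0.01 (adjusted p = 0.149). Neither was foxo3a, with a difference of -0.10 and an interval of -0.36 to 0.17 (adjusted p = 0.587), or foxo3b, with 0.26 and an interval of 0.02 to 0.51 (adjusted p = 0.108). After 28 days at 28 °C, then, foxl2a and gata6 stood above their day 0 level, while runx1 and foxo3a stood within these intervals of theirs.

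**Figure D2:**
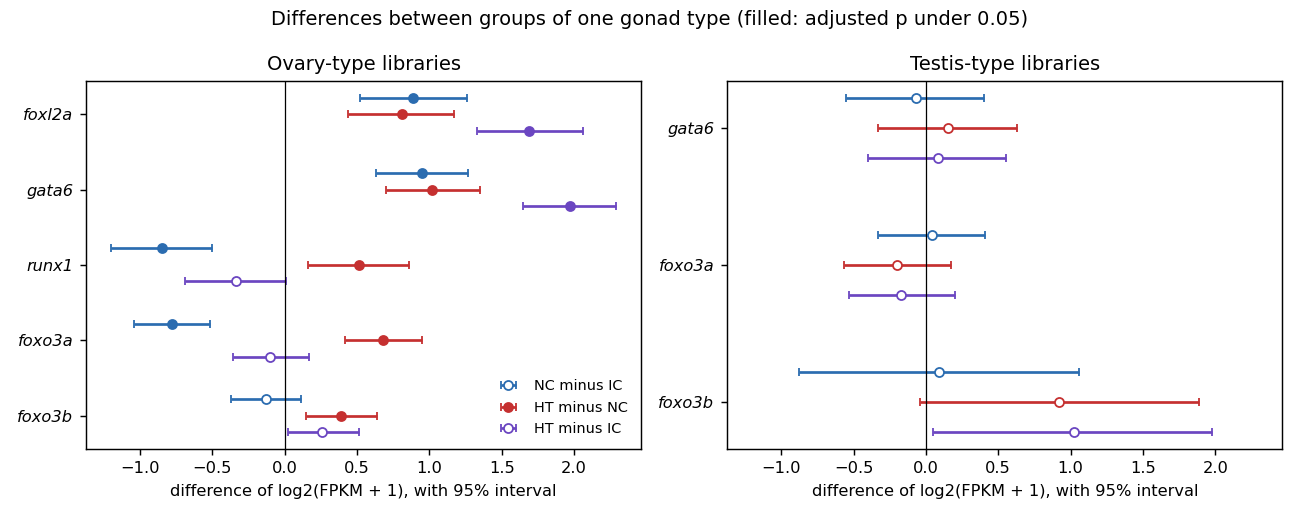
Differences of log2(FPKM + 1) between groups of the same gonad type (horizontal axis), with 95% intervals from limma, for the 5 genes tested in ovary-type and the 3 tested in testis-type libraries. Filled points have an adjusted p under 0.05: all 5 red points (HT minus NC) are filled in ovary-type libraries, and no point is filled in testis-type libraries.

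In testis-type libraries none of the 3 genes that could be tested was called, and a missed threshold does not show that heat left them as they were. In HT-F against NC-M, 6.17% of 22791 genes were higher and 4.50% lower, and no member was called, nor did any reach an unadjusted p under 0.05. gata6 differed by 0.15 (95% interval -0.33 to 0.63, limma adjusted p = 0.62) and foxo3a by -0.20 (interval -0.57 to 0.17, adjusted p = 0.378). foxl2a reached at most 0.37 FPKM and runx1 at most 0.40 FPKM in the 9 testis-type libraries, heated ones included. Without NC-M libraries 1 and 2, which left a single NC-M library assumed to vary like the other groups, gata6 differed by 0.63.

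foxo3b was the member for which 1 library decided the result. It stood at 1.64, 6.88 and 7.42 FPKM in HT-F, against 2.85, 1.67 and 1.49 FPKM in NC-M and 1.63, 1.77 and 1.91 FPKM in IC-F. HT-F libraries 2 and 3 were thus above every other library of the series for this gene, and HT-F library 1 lay among the unheated ones. The difference between HT-F and NC-M was 0.92 ± 0.422 (95% interval -0.04 to 1.89, limma adjusted p = 0.148). Without HT-F library 1 it was 1.47 and called (adjusted p = 0.0185), and with all 18 libraries setting the spread it was also called (adjusted p = 0.0366).

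Other genes separated the same 2 HT-F libraries. The 3 genes most like foxo3b over the 9 testis-type libraries were col1a1b, a chain of type I collagen (Pearson r = 0.958 over log2 values, given as a description), zyx, a focal adhesion protein (r = 0.956), and rgmb, a co-receptor for bone morphogenetic proteins (r = 0.953). col1a1b stood at 12.0, 29.9 and 25.4 FPKM in HT-F libraries 1, 2 and 3. Smooth muscle actin acta2 stood at 395, 864 and 792 FPKM, and igfbp1a, an insulin-like growth factor binding protein, at 11.4, 68.7 and 69.8 FPKM. Both were chosen after their values were seen. The 7 markers of smooth muscle and fibroblasts summed to 1140 to 2730 FPKM in HT-F and 844 to 1030 FPKM in NC-M, with none at 0 in either group. Their part in the foxo3b values was not tested.

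**Figure D3:**
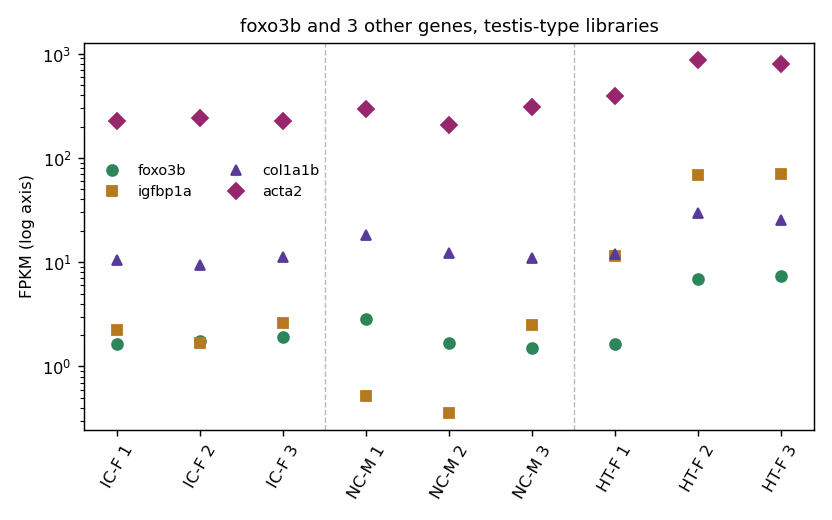
FPKM (log axis) of foxo3b, igfbp1a, col1a1b and acta2 in each of the 9 testis-type libraries. For all 4 genes HT-F libraries 2 and 3 lie above HT-F library 1, and foxo3b in HT-F library 1 (1.64 FPKM) is at the level of the unheated libraries.

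The other testis-type comparisons also called none of the 3. In NC-M against IC-F, with 16.4% of genes higher and 18.1% lower, the differences were -0.07 for gata6, 0.04 for foxo3a and 0.09 for foxo3b, and none had an unadjusted p under 0.05. Leaving out NC-M libraries 1 and 2 left a single NC-M library and gave gata6 a difference of -0.55. Without NC-M library 3 the gata6 difference was 0.16 (limma adjusted p = 0.272), so its size and sign depend on the NC-M libraries kept. In HT-F against IC-F, with 14.8% higher and 9.04% lower, gata6 differed by 0.08 and foxo3a by -0.17. foxo3b differed by 1.02 (95% interval 0.05 to 1.98, adjusted p = 0.115) and had the only unadjusted p under 0.05.

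The heat effects of both gonad types were compared directly in a fit of all 18 libraries. Of 25184 genes tested, 16.3% had a heat effect called higher in ovary-type than in testis-type libraries and 16.4% a lower one. foxo3a differed most, by 0.89 ± 0.179 (limma adjusted p = 0.00247). gata6 differed by 0.87 ± 0.252 (adjusted p = 0.0176). Without NC-M libraries 1 and 2, which left a single NC-M library, the gata6 difference fell to 0.40. foxl2a differed by 0.74 ± 0.225 (adjusted p = 0.0218), but it is near 0 in testis-type libraries and passed the filter only through ovary-type ones. Its testis-type change is thus kept small on this scale, and with log2(FPKM + 0.1) the adjusted p was 0.356. The foxl2a difference was also not called without NC-F library 1 (0.59, adjusted p = 0.0593) or NC-F library 2 (0.71, adjusted p = 0.0504). When only the libraries compared set the spread its adjusted p was 0.0589. runx1 (0.55, adjusted p = 0.0677) and foxo3b (-0.53, adjusted p = 0.376) were not called. runx1 is also near 0 in testis-type libraries and passed the filter only through ovary-type ones, so the limit given for foxl2a holds for it too. It was called without IC-M library 3 (0.55, adjusted p = 0.042) or NC-M library 3 (0.64, adjusted p = 0.0235). Without HT-F library 1 the difference for foxo3b was -1.07 (adjusted p = 0.00381).

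Between gonad types, foxl2a, runx1 and foxo3a were at higher levels in ovary-type libraries in all 3 conditions, with no overlap. At day 0, 28.6% of genes were higher and 49.3% lower in ovary-type than in testis-type libraries. The figures were 27.9% and 48.9% after 28 days at 20 °C, and 26.3% and 47.7% at 28 °C. foxl2a differed by 3.54, 4.33 and 5.07 in these conditions and runx1 by 3.37, 2.36 and 2.91 on the log2(FPKM + 1) scale. Both were at or above 1 FPKM in 9 of 9 ovary-type and 0 of 9 testis-type libraries and so passed the filter only where they are high, and their differences are given with no test. foxo3a was at or above 1 FPKM in all 18 libraries. It was higher in ovary-type ones by 1.92 at day 0, by a 95% interval of 0.83 to 1.37 at 20 °C and by 1.99 at 28 °C (largest limma adjusted p = 1.31e-06). The median gene was lower by 0.57, 0.57 and 0.52, and median-of-ratios scaling moved that median up by 0.20 to 0.23.

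Between gonad types, gata6 was called in every setting only at day 0. It was lower in ovary-type libraries at day 0 (-1.49 ± 0.178, limma adjusted p = 1.87e-06) and at 20 °C (-0.47 ± 0.178, adjusted p = 0.0261), and stood 0.40 above testis-type libraries at 28 °C (adjusted p = 0.0531). The 20 °C call was lost under median-of-ratios scaling (-0.19, adjusted p = 0.35). Without NC-M libraries 1 and 2, which left a single NC-M library, that difference was 0.01. Over the settings tried it ran from -0.71 to 0.01, and the 28 °C difference from 0.32 to 0.74. The 28 °C difference stayed uncalled in 16 of 25 settings. It was called under median-of-ratios scaling (0.74, adjusted p = 0.00211) and when only the libraries compared set the spread (adjusted p = 0.0261), among others. foxo3b differed between types by 0.37, 0.15 and -0.38, with adjusted p of 0.299, 0.681 and 0.288. At 28 °C it was lower in ovary-type libraries by the test without HT-F library 1 (-0.92, adjusted p = 1.91e-04). The day 0 difference was called when only the libraries compared set the spread (adjusted p = 0.0067), or without HT-F library 1 (adjusted p = 0.0347).

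Read by their labelled letters, the heat comparisons would mix the gonad types. For HT-F against NC-F, where 49.4% of genes were higher and 24.9% lower, foxl2a differed by -4.26, runx1 by -2.40 and foxo3a by -1.30. In HT-M against NC-M, where 29.0% were higher and 47.2% lower, the same genes differed by 5.13, 2.87 and 1.78. gata6 was called higher in both (0.62 and 0.55), and foxo3b in the first (0.78, limma adjusted p = 0.0385). Under median-of-ratios scaling the first comparison gave 0.18 for gata6 (adjusted p = 0.382) and 0.41 for foxo3b (adjusted p = 0.239), neither called. In the second, gata6 was not called when only the libraries compared set the spread (adjusted p = 0.0762). Those values carry the difference between ovary-type and testis-type gonads beside any effect of heat.

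Levels of the members moved together in pairs over the 9 ovary-type libraries. foxl2a and gata6 had a Pearson r of 0.99 and runx1 and foxo3a one of 0.85, given as descriptions over libraries that fall into 3 groups. Among 6405 genes compared, those most like foxl2a were gapdhs, a glycolytic dehydrogenase (r = 0.991), ddx21, a nucleolar RNA helicase (0.990), and gata6. For gata6 they were foxl2a, gapdhs and fkbp5, a chaperone of steroid receptors (0.985), whose mean rose from 0.9 FPKM in IC-M to 17.4 FPKM in HT-M. For runx1 they were ctif, a translation initiation factor (0.991), fgf17, a fibroblast growth factor (0.987), and lrrc31 (0.986). For foxo3a they were grk4, a receptor kinase (0.983), klf4, a zinc finger factor (0.977), and pnrc2, a nuclear receptor coregulator (0.974). For foxo3b they included prkrip1 (0.980) and faxdc2 (0.975).

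Summed levels of some other cell types' markers also differed between the groups compared. The 5 endothelial markers summed to 1.69 to 1.73 FPKM in IC-M, 2.20 to 3.24 FPKM in NC-F and 7.77 to 13.4 FPKM in HT-M. The 4 red blood cell markers in the table summed to 26.8 to 89.6 FPKM in NC-F and 264 to 292 FPKM in HT-M, and the 7 smooth muscle and fibroblast markers to 424 to 481 and 609 to 974 FPKM. None of these markers was at 0 throughout a group. The 5 granulosa and theca markers summed to 40.0 to 50.6 FPKM in IC-M and 50.4 to 74.6 FPKM in NC-F, which overlapped. In HT-M they summed to 77.7 to 91.9 FPKM, above both. Of these markers, fshr, hsd17b1 and star lay higher in HT-M than in NC-F, while amh and inha overlapped. They summed higher in testis-type libraries, at 131 to 149 FPKM in IC-F, 166 to 265 in NC-M and 156 to 200 in HT-F. Their sum thus does not mark ovarian follicle cells alone. The 7 oocyte markers summed to 2630 to 2810 FPKM in IC-M, 3020 to 3390 in NC-F and 2240 to 2580 in HT-M. Of these, zar1, zar1l, zpd and gdf9 lay lower in HT-M than in NC-F, btg4 lay higher, and bmp15 and figla overlapped. The Sertoli and Leydig markers summed to 14.3 to 16.8 FPKM in NC-F and 12.6 to 13.7 FPKM in HT-M. The macrophage and the lymphocyte sums overlapped between NC-F and HT-M. The part of all these markers in the members' values was not tested. In whole gonads a larger share of cells of a type and more RNA per cell cannot be told apart.

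Ratios within a library set the members beside genes known from follicle cells. In whole gonads they do not show that both genes of a ratio come from the same cells. fshr, the follicle-stimulating hormone receptor of granulosa cells, rose from 5.13 to 5.39 FPKM in NC-F to 12.3 to 12.7 FPKM in HT-M (SE of the log2 difference 0.149, limma adjusted p = 7.63e-04). foxl2a stood at 2.12 to 3.81 times fshr in IC-M, 3.19 to 5.32 times in NC-F and 3.03 to 3.18 times in HT-M. HT-M lay just below the NC-F range by this measure. Against other genes of follicle cells HT-M lay above it: the ratio to inha, an inhibin subunit, was 1.21 to 1.34 in NC-F and 1.81 to 2.65 in HT-M, and that to amh, anti-Mullerian hormone, 1.95 to 2.5 and 3.68 to 3.9. Against hsd17b1, an oestrogen-forming enzyme, the ratio was 0.466 to 0.489 in IC-M, 0.67 to 0.796 in NC-F and 0.822 to 1.01 in HT-M, and the groups did not overlap. Relative to foxl2a, runx1 stood at 0.706 to 1.29 in IC-M, 0.174 to 0.317 in NC-F and 0.197 to 0.236 in HT-M, so the day 0 ratio was higher than at day 28 at either temperature. gata6 stood at 0.671 to 1.21 times fshr in IC-M, 1.23 to 1.74 times in NC-F and 1.22 to 1.52 times in HT-M. By this measure HT-M overlapped NC-F, unlike the ratio of gata6 to gata4 given below.

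**Figure D4:**
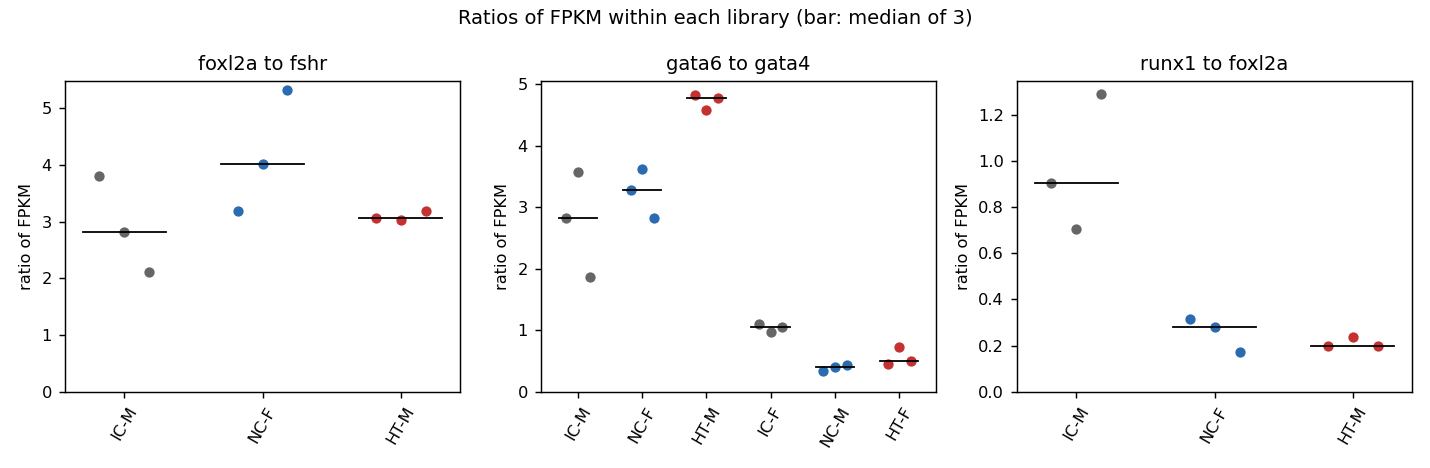
Ratios of FPKM within each library (points; bar, median of 3) for foxl2a to fshr, gata6 to gata4 and runx1 to foxl2a. The ratio of foxl2a to fshr in HT-M (3.03 to 3.18) lies just below that in NC-F (3.19 to 5.32), gata6 to gata4 is highest in HT-M (4.59 to 4.83), and runx1 to foxl2a is highest in IC-M.

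Relatives of the members differed in level between gonad types. The genes gata4, gata5, foxo1a, foxo4, foxr1 and foxh1 were chosen for naming after their values were seen. gata4 stood at 1.18 to 3.92 FPKM in ovary-type and 10.8 to 39.8 FPKM in testis-type libraries. gata6 exceeded gata4 in all 9 ovary-type libraries, by 1.87 to 3.57 times in IC-M, 2.82 to 3.62 times in NC-F and 4.59 to 4.83 times in HT-M. In testis-type libraries the ratio was 0.969 to 1.1 in IC-F, 0.341 to 0.432 in NC-M and 0.46 to 0.73 in HT-F. From NC-F to HT-M, gata4 differed by 0.41 (limma adjusted p = 0.0662) and gata5 by 0.23 (adjusted p = 0.153).

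Of 6 RUNX family and partner genes beside runx1, 3 had enough signal to be tested in ovary-type libraries: runx3, cbfb and cbfa2t2. runx3, taken by the list rule below, stood at 0.14, 0.13 and 0.13 FPKM in IC-M, 0.56, 0.65 and 0.70 FPKM in NC-F, and 3.51, 3.38 and 3.81 FPKM in HT-M. The groups did not overlap. The gene passed the filter only through HT-M, the group where it is high, so the difference from NC-F (1.48 on the log2(FPKM + 1) scale) is a description with no test. runx1 was 66.7 to 103 times runx3 in IC-M, 7.1 to 9.73 times in NC-F and 2.02 to 2.69 times in HT-M. cbfb, the shared partner of RUNX proteins, stood at 0.86 to 1.21 FPKM in NC-F and 2.21 to 2.44 FPKM in HT-M, and it too passed the filter through HT-M. cbfa2t2, a corepressor of that family, was above 1 FPKM in every ovary-type library. It rose by 0.82 ± 0.144 from NC-F to HT-M (limma adjusted p = 0.00241). From IC-M to HT-M it was not called (0.44, adjusted p = 0.0554).

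The FoxO genes were used in different proportions. Of the summed FPKM of foxo1a, foxo3a, foxo3b, foxo4 and foxo6b, foxo3a made up 61.3 to 65.1% in IC-M, 40.6 to 47.3% in NC-F and 45.0 to 49.3% in HT-M. foxo4 made up 60.4 to 63.1% in IC-F, 13.9 to 49.0% in NC-M and 19.1 to 53.2% in HT-F, and no more than 2.37% in any ovary-type library. foxo3a stood at 3.22 to 3.4 times foxo3b in IC-M, 1.71 to 2.33 times in NC-F and 2.11 to 2.7 times in HT-M, against 0.139 to 1.07 times in testis-type libraries. foxo1a, a FoxO factor that is abundant in mouse granulosa cells, rose from NC-F to HT-M by 0.55 ± 0.139 (limma adjusted p = 0.0115).

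**Figure D5:**
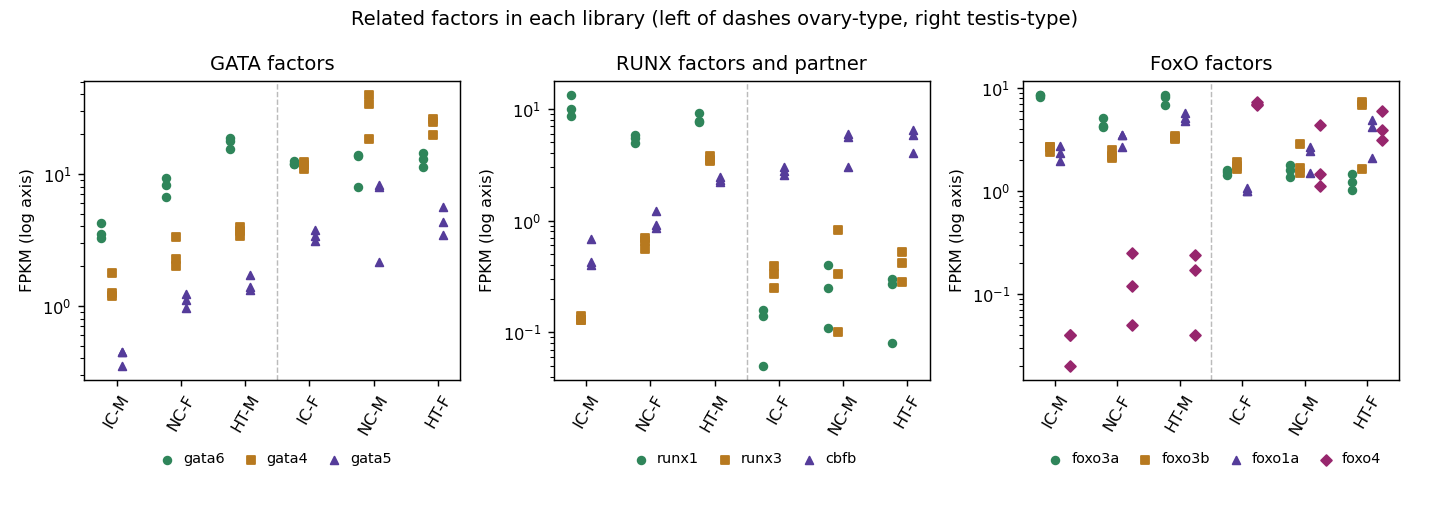
FPKM (log axes) of GATA, RUNX and FoxO genes in each of the 18 libraries by group. gata6 lies above gata4 in ovary-type libraries, runx3 reaches 3.38 to 3.81 FPKM in HT-M against 0.56 to 0.70 FPKM in NC-F, and foxo4 is at or above 1.12 FPKM in every testis-type library and at or under 0.25 FPKM in every ovary-type one.

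Gene lists around the members are described by counts and medians. The median log2 difference over all genes was 0.07 in HT-M against NC-F and 0.09 in HT-F against NC-M. Among all genes, 28.7% were called higher and 20.0% lower in the former, and 6.17% and 4.50% in the latter. Of 15 other ovary fate and oestrogen genes tested in ovary-type libraries, 6 were higher and none lower, with a median of 0.28, against 28.7% higher and 20.0% lower among all genes. They included fshr and the oestrogen receptor esr2b (0.62 ± 0.114, limma adjusted p = 0.0031). inhbaa, an activin subunit, was also among them, but it passed the filter only through HT-M (1.74 to 2.25 FPKM, against 0.05 to 0.10 FPKM in NC-F). Its difference is thus a description, and its place among the 6 was set by the filter. In testis-type libraries none of 14 was called, and the median was -0.03. Aromatase under its usual symbol cyp19a1a was not used here.

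Testis fate genes moved in both directions in heated ovary-type libraries. Of 8 tested, 3 were higher and 1 lower, with a median of 0.29, beside 28.7% higher and 20.0% lower among all genes. sox9a, a Sertoli cell factor in mammals, fell by 0.75 ± 0.12 on the log2 scale (limma adjusted p = 0.00166). It stood at 5.28 to 6.08 FPKM in NC-F and 2.54 to 3.12 FPKM in HT-M. In testis-type libraries sox9a was lower in each condition, at 0.48 to 0.99 FPKM in IC-F, 0.83 to 4.55 in NC-M and 1.41 to 2.51 in HT-F. Its fall is thus not that of a gene with higher testis-type levels here. ptch1, the hedgehog receptor, rose by 0.43 (adjusted p = 0.0193) and dmrt2a by 0.35 (adjusted p = 0.02). dmrt1, the testis-determining factor set beside foxl2a as an anchor, stood at 0.04 to 0.07 FPKM in IC-M and NC-F, 0.17 to 0.21 FPKM in HT-M, and 41.7 to 112 FPKM in testis-type libraries. In HT-F against NC-M, 3 of 12 testis fate genes were higher and 3 lower, with a median of -0.32. Among all genes, 6.17% were higher and 4.50% lower there. dmrt1 rose by 0.74 ± 0.153 (adjusted p = 0.0313) and dmrt2a changed by -2.28 ± 0.284 (adjusted p = 0.00979). sf1 (0.53, adjusted p = 0.0337) is by this symbol a splicing factor and not the steroidogenic factor for which the list held it.

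Of 12 germ cell genes tested in ovary-type libraries, 3 were higher and 4 lower, with a median of -0.08, beside 28.7% higher and 20.0% lower among all genes. dnd1, an RNA-binding protein that protects germ cells, rose by 1.08 ± 0.0976 (limma adjusted p = 1.02e-04). sycp3, a part of the synaptonemal complex of meiosis, changed by -2.19 ± 0.271 (adjusted p = 5.10e-04) and piwil1, of the piRNA pathway, by -0.57 ± 0.0772 (adjusted p = 7.94e-04). In testis-type libraries, where 6.17% of all genes were higher and 4.50% lower, 1 of 15 was called, with a list median of 0.73. It was dazl, a germ cell RNA-binding protein, which rose by 0.80 ± 0.204 (adjusted p = 0.0464).

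Upstream and downstream of FoxO, the lists were mixed. The upstream list held insulin receptors, PI3K, AKT and other genes such as sgk1 and sirt1. Of 19 tested, 7 were higher and 1 lower in HT-M than in NC-F, with a median of 0.18. Among all genes, 28.7% were higher and 20.0% lower. pik3cb, a PI3K catalytic subunit, rose by 1.09 ± 0.249 (limma adjusted p = 0.00758), igf1rb, an insulin-like growth factor receptor, by 0.44 ± 0.114 (adjusted p = 0.0125), and sirt1, a deacetylase that acts on FoxO proteins, by 0.42 ± 0.108 (adjusted p = 0.012). Of 18 known FoxO targets, 5 were higher and 5 lower, with a median of 0.07, the same as that of all genes. Those named by the rule were btg1, an antiproliferative gene (1.42 ± 0.132, adjusted p = 1.19e-04), txnipa, a thioredoxin inhibitor (1.21 ± 0.124, adjusted p = 2.06e-04), and fbxo32, a ubiquitin ligase subunit (0.54 ± 0.0824, adjusted p = 0.00135).

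In testis-type libraries, 3 of 21 genes of the upstream list were higher and 2 lower (median 0.08). Of 18 FoxO targets, 4 were higher and none lower (median 0.25). Among all genes, 6.17% were higher and 4.50% lower. sirt1 changed by -1.29 ± 0.201 (limma adjusted p = 0.0179) and igf1ra by -1.06 ± 0.226 (adjusted p = 0.0331), while akt3b, an AKT kinase, rose by 0.88 ± 0.193 (adjusted p = 0.0345). Among targets, catalase gene cat rose by 1.28 ± 0.19 (adjusted p = 0.0163), the cell cycle inhibitor cdkn1ba by 1.53 ± 0.28 (adjusted p = 0.0247) and the DNA damage gene gadd45aa by 0.72 ± 0.178 (adjusted p = 0.0427).

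Among the family lists, the 3 RUNX family genes tested beside runx1 in ovary-type libraries were runx3, cbfb and cbfa2t2, and since the first 2 passed the filter through HT-M no count is given for them. In HT-F against NC-M, where 6.17% of all genes were higher and 4.50% lower, 1 of 3 was called higher. It was cbfa2t2 (1.14 ± 0.239, limma adjusted p = 0.0325), and the list median was 0.16. No GATA gene or partner was called among 3 in ovary-type and 5 in testis-type libraries (medians 0.34 and -0.20), the nearest being zfpm1 (0.34, adjusted p = 0.0629) and trps1 (0.30, adjusted p = 0.209). Of 14 other forkhead genes tested in ovary-type libraries, 3 were higher and 4 lower (median -0.07), beside 28.7% and 20.0% among all genes. The 3 hold foxp1b, which passed the filter only through HT-M (1.39 to 1.55 FPKM, against 0.40 to 0.67 FPKM in NC-F), so its place there was set by the filter. The 4 hold foxg1a (-0.71 ± 0.163, adjusted p = 0.00787) and foxk1 (-1.06 ± 0.25, adjusted p = 0.00854). None of 15 was called in testis-type libraries (median 0.07), where foxp1b came nearest (-0.72, adjusted p = 0.0512). Of the forkhead genes at high levels in ovary-type libraries, foxr1 stood at 96.7 to 207 FPKM, above every member, and foxh1 at 30.6 to 48.4 FPKM, a range that holds the HT-M values of foxl2a. In testis-type libraries they stood at no more than 0.29 and 0.67 FPKM. From NC-F to HT-M, foxr1 was among the 4 called lower (-0.66 ± 0.216, limma adjusted p = 0.0334). foxh1 was not called (-0.30, adjusted p = 0.168).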

How the data were processed

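Total RNA of gonads was sequenced in 18 libraries, 0.4 ug of RNA each, per the labels' protocols. The authors deposited 1 table of FPKM with 2 decimals, per the file headers; the build, the aligner and the counting tool are not given in the sources used, and no label names a batch. FPKM are not counts, so depth is unknown. Entries were matched to RefSeq symbols, with no coordinates or sequences used.

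limma 3.58.1 in R 4.3.3 (lmFit, eBayes with trend) was run on log2(FPKM + 1) for genes with at least 1 FPKM in at least 3 fitted libraries. Comparisons within a gonad type used its 9 libraries, others all 18, 12 in all, with Benjamini-Hochberg adjustment over all genes tested. Methods were tested on simulated data. Levels are single values, ranges or means of 3 libraries, and ± gives the limma SE of a log2 difference. Figures used Python 3.11.15 with matplotlib 3.10.9.

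The 7 members, the gene lists and the marker lists were chosen with earlier results of these data known. Named genes are the members, dmrt1, up to 3 called genes per list with the smallest adjusted p in each heat comparison (or the smallest p where none was called), and the 3 genes with a mean of at least 5 FPKM most like each member by Pearson r. A gene that this rule names is not reported here. Alternatives were a pseudocount of 0.1, no filter, a filter at 5 FPKM, median-of-ratios scaling, other libraries in the fit, a replicate block, each library left out in turn and, added after seeing the data, NC-M libraries 1 and 2 left out together.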

Additional observations from a re-analysis of the deposited data

Results flagged for a closer look

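In the test of the difference itself, the heat effect was called different between ovary-type and testis-type libraries for gata6 and foxo3a, and for foxl2a with a limit given below. On the log2(FPKM + 1) scale it was larger in ovary-type libraries by 0.74 for foxl2a, by 0.87 for gata6 and by 0.89 for foxo3a, with limma adjusted p of 0.0218, 0.0176 and 0.00247. All 3 HT-M libraries lay above all 3 NC-F libraries for each gene. foxl2a was at or under 0.37 FPKM in testis-type libraries and passed the filter only through ovary-type ones. Its testis-type change is thus kept small on this scale, so its difference is not read as a result on both types. With a pseudocount of 0.1 it was not called. The difference of gata6 fell to 0.40 without NC-M libraries 1 and 2, which left a single NC-M library.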

How the results depend on the processing

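In HT-M against NC-F, 3 to 5 members were called with each library left out in turn, 3 of them without NC-F library 1. Replicate numbers did not pair the libraries: deviations of same-numbered libraries correlated by -0.21 to 0.21. With a replicate block, runx1 was not called there (0.51, adjusted p = 0.054), and the block changed no other call of a member among these comparisons. In testis-type libraries, 0 to 1 member was called in HT-F against NC-M and in HT-F against IC-F with a library left out, and 1 in each with all 18 libraries in the fit: foxo3b in every case. In NC-M against IC-F, gata6 differed by -0.55 without NC-M libraries 1 and 2, which left a single NC-M library. HT-F against NC-F called 3 members under median-of-ratios scaling. Some uncalled differences changed sign. With a library left out, gata6 ran from -0.09 to 0.27 in HT-F against NC-M, and in NC-M against IC-F gata6 ran from -0.20 to 0.16, foxo3a from -0.02 to 0.10 and foxo3b from -0.10 to 0.21. Median-of-ratios scaling gave foxo3a -0.06 and foxo3b -0.01 in NC-M against IC-F, and gata6 -0.08 in HT-F against IC-F. Without NC-M libraries 1 and 2, foxo3b was -0.15 in NC-M against IC-F, and gata6 was 0.01 in NC-F against NC-M, the only called difference to change sign. The causes were not tested. That scaling moved the median of all genes by -0.12 in NC-M against IC-F, -0.11 in HT-M against IC-M, -0.14 in HT-F against IC-F, and -0.29 and 0.14 in the comparisons by letter. Counts over all genes moved by over 1.5 times: 2432 in HT-F against NC-M became 62 (without HT-F library 3) to 10693 (without NC-M library 3), 5438 in HT-F against IC-F became 1815 to 10635, 7869 in NC-M against IC-F became 3787 to 12149, 4345 in NC-F against IC-M became 2262 to 2888, 4179 in HT-M against IC-M became 2463 to 2566, and 8221 in the difference of heat effects became 12914. Depth is unknown, so the 0 values of foxl2l and foxl3 set no limit.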
